A study of Mus musculus with 8 samples.

Results

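Nuclear genes that encode the mitochondrial respiratory chain were described in mouse thymocytes labelled wild type or knockout for Bcl6, a transcriptional repressor of lymphocytes. A gene was a member if its symbol began with Nduf, Uqcr, Atp5, Cox4, Cox5, Cox6, Cox7 or Cox8, or was Sdha, Sdhb, Sdhc, Sdhd or Cycs, and pseudogene symbols were dropped. This gave 90 genes of the 13073 listed in the deposited tables. Of these, 37 encode complex I subunits, 8 complex I assembly factors, 4 complex II, 8 complex III, 15 complex IV, 17 complex V and 1 cytochrome c. The rule used names only and no measured value. The tables list 90 members in vitro and 89 in vivo, where Ndufb4c is not listed.

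RNA sequencing was done on 8 libraries, 2 in each of 4 groups. The groups labelled WT were Bcl6fl/fl and those labelled KO were Bcl6fl/fl Cd4cre, so both carry the floxed Bcl6 allele and differ in a Cre transgene that is driven from Cd4 and acts in thymocytes from the CD4+CD8+ stage onward. For the in vitro groups, CD4+CD8+ (DP) thymocytes were sorted and kept for 24 h with antibodies to CD3 and CD28 at 8 μg/ml each. Cells that then lacked both coreceptors (double-negative, DN) were sorted for RNA. For the in vivo groups, CD4-CD8- thymocytes carrying CD5 and TCRb were sorted directly from the thymus; the labels call them agonist-p, and the series concerns the thymic precursors of TCRαβ+CD8αα+ intraepithelial lymphocytes. The labels give no age, sex or number of animals per library, and p-values therefore measure only the spread between these libraries. Libraries were built by Novogene in vitro and by BGI Genomics in vivo, so provider and system cannot be told apart and levels were not tested between them.

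Library totals ran from 14754440 to 23975636 gene counts. Bcl6 itself went against the label in vitro: its level was 24.9 and 21.9 FPKM (fragments per kilobase of transcript, scaled to the library's mapped fragments) in the libraries labelled WT and 64.6 and 61.0 FPKM in those labelled KO, a log2 fold change of 1.45 ± 0.09 (SE) with an edgeR adjusted p of 1.5e-06. In vivo the 2 groups overlapped for Bcl6, with a log2 fold change of -0.14 and an adjusted p of 0.882. The labels do not say which exons Cre removes, so the level of the whole gene does not check the deletion, and groups are named by their labels throughout. All 8 T cell markers were listed in every library. In vitro 4 of them rose, Cd8b1 (log2 fold change 0.76), Cd4 (0.72), Lck (0.41) and Cd3d (0.25), and 2 fell, Cd8a (-0.42) and Cd3e (-0.26); in vivo none was called. In vitro Ms4a1, Lyz2, Csf1r, Itgax and the 3 NK cell markers were not listed. In vivo all of these were listed, and the summed myeloid level was 34.9 and 16.2 FPKM in the labelled WT libraries against 131 and 23.3 in the labelled KO libraries. The 3 NK cell markers summed to 250 and 152 FPKM against 256 and 244. No myeloid or NK cell marker was called in vivo, and labelled WT replicate 2 had the lowest sum of both lists.

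The respiratory chain sits in the inner mitochondrial membrane. Complex I oxidises NADH and complex II oxidises succinate, and both pass electrons through coenzyme Q to complex III, which hands them to cytochrome c; complex IV then reduces oxygen, and complex V uses the proton gradient built by complexes I, III and IV to make ATP. All complexes but II combine nuclear subunits with a few made from mitochondrial DNA, so the genes described here must be matched by mitochondrial transcription and translation. T cells that are activated through their receptor are known to enlarge their mitochondrial content as they grow, and cytochrome c, besides carrying electrons, starts caspase activation when it leaves the mitochondrion.

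In the stimulated DN cells, respiratory chain transcripts were lower in the libraries labelled KO, with fallen genes in every complex. By edgeR's quasi-likelihood test, 46 of 89 tested members fell and 3 rose at an adjusted p under 0.05 over all 9658 genes, while 17.7% of all tested genes fell and 20.1% rose. The median log2 fold change of the members was -0.26, beside a median of -0.00 over all genes tested. The range ran from -0.74 (Ndufaf4) to 0.68 (Cox6b2), and 80 of 89 values lay below 0. Members also shifted between replicates. In labelled WT replicate 2, 55 of 89 were lower than in WT replicate 1, with a median difference of -0.05 on the log2 scale. In labelled KO replicate 2, 26 of 89 were lower than in KO replicate 1, with a median of 0.09. Members took 1.19% and 1.14% of all counts in the labelled WT libraries and 0.942% and 1.0% in the labelled KO libraries. Both labelled KO libraries lay below both labelled WT libraries in FPKM for 66 of 89 members, a pattern found in 38.6% of all tested genes, and both lay above for 4 members, against 32.5% of all genes. Fewer cells rich in these transcripts and less of them per cell cannot be told apart in bulk RNA. The count of fallen members was 24 without labelled WT replicate 1 and 26 without labelled KO replicate 1, and 14 of the 46 remained called whichever library was left out. None of the 3 risen members did.

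**Figure D1:**
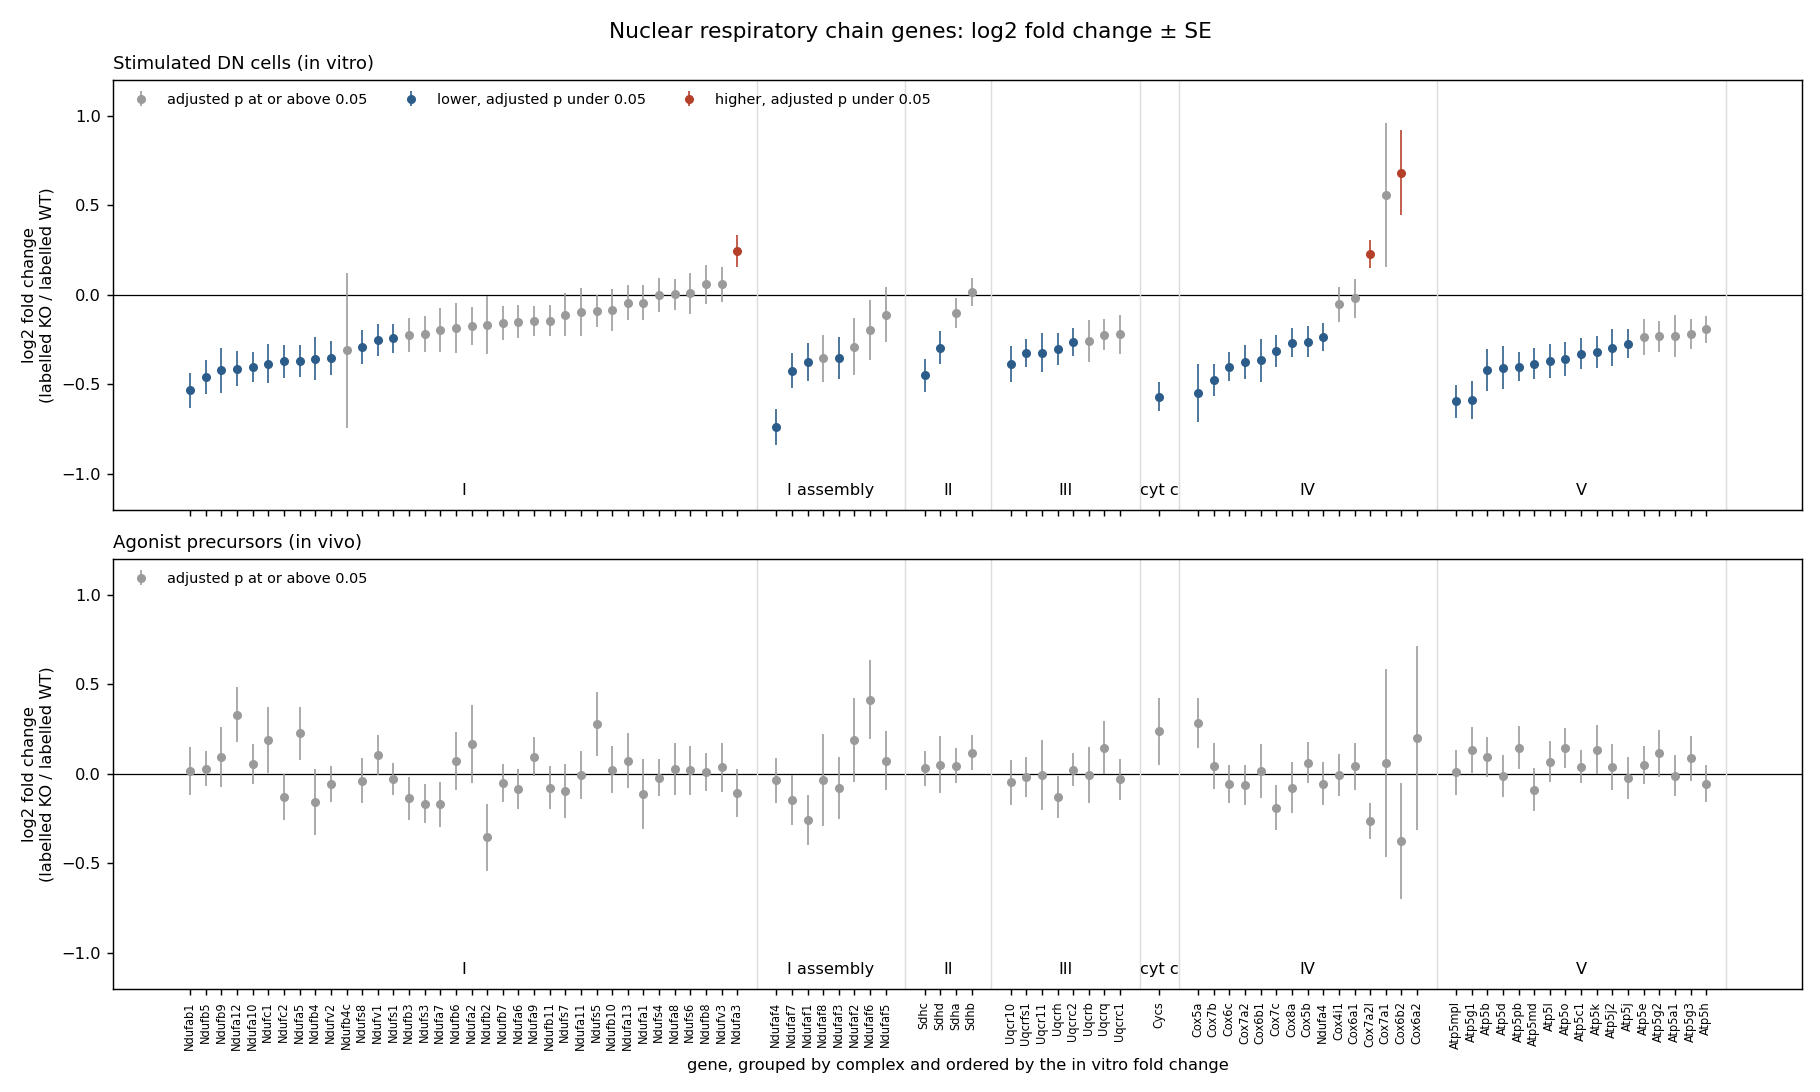
Log2 fold change (y axis, labelled KO over labelled WT) of the tested genes with their standard errors, 1 gene left out, grouped by complex on the x axis, in vitro above and in vivo below; colour marks an adjusted p under 0.05. In vitro 46 genes lie below 0 and 3 above 0 with such a p, and every complex V gene lies below 0; in vivo no gene passes.

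**Figure D2:**
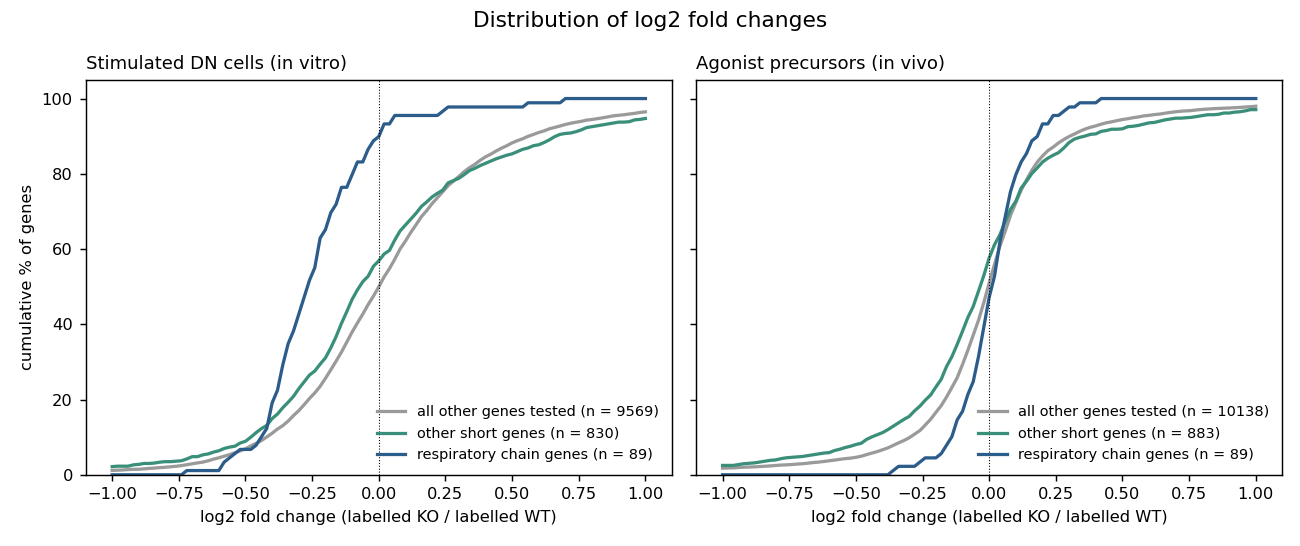
Cumulative percentage of genes (y axis) at or below each log2 fold change (x axis) for the 89 tested respiratory chain genes, for all other tested genes, and for other genes no longer than the median respiratory chain gene. In vitro the curve of the respiratory chain genes lies left of both others around its median of -0.26, and in vivo it crosses them near 0.

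Length was examined because these genes are short: in vitro the median member had 0.384 of the length of the median tested gene, and 82 of 89 were shorter than it. Among the 830 other tested genes no longer than the median member, 17.5% fell, 12.9% rose and the median log2 fold change was -0.07. With each library's trend of expression on length taken out, 34 members fell, 3 rose and their median was -0.23. That fit called 17.9% of all tested genes lower and 20.1% higher. Across the 89 members, Spearman's rho between the in vitro fold change and length was -0.24 and that between fold change and mean FPKM was 0.09; these are descriptions across genes of the same 4 libraries. Strand use in counting is not given in the sources used here, so reads of Ndufv2 and Ankrd12, Atp5d and Cbarp, Atp5j and Gabpa, Atp5md and Taf5, Cox7a2 and Tmem30a, and other overlapping pairs cannot be told apart; Ndufaf4 and Sdhc overlap the predicted genes Gm46848 and Gm46172.

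Cytochrome c and a complex I assembly factor led the fallen genes together with subunits of complex V. Cycs encodes the somatic form of cytochrome c (mouse GRCm38.p6 chr6:50562563-50566569, minus strand). Its level was 38.6 and 38.8 FPKM in the labelled WT libraries and 24.8 and 26.4 FPKM in the labelled KO libraries. The groups were far apart relative to their replicates, and the log2 fold change was -0.57 ± 0.08 (SE) with an adjusted p of 0.00031. Leaving out any one library kept it between -0.62 and -0.53, with a highest adjusted p of 0.0024. Ndufaf4, which encodes an assembly factor of complex I, lies at chr4:24898083-24905001 on the plus strand. It measured 14 and 13.2 FPKM in the labelled WT libraries against 8.61 and 7.40 in the labelled KO libraries. This was the lowest log2 fold change of all members in vitro, -0.74 ± 0.10 (adjusted p 0.00025), and it stayed between -0.85 and -0.63 with one library left out.

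Sequence upstream of the starts was read for motifs of NRF1, GABP and YY1, factors known to act on promoters of respiratory chain genes, in RefSeq windows of GRCm38.p6 that run from 250 bases before to 50 bases after a gene's start. A window was at hand for 75 of 90 members. Shown here are stretches outside annotated exons from 3 genes that fell in vitro (Cycs, Ndufaf4, Sdhd) and 1 that was not called (Ndufs5, log2 fold change -0.09, adjusted p 0.44), each 5′ to 3′ on the gene's own strand. They are Cycs chr6:50566570-50566642 (minus strand), Ndufaf4 chr4:24897958-24898017 (plus), Sdhd chr9:50603850-50603909 (minus) and Ndufs5 chr4:123718242-123718301 (minus). Capitals mark the NRF1 motif (GCGCA and GCGC around any 1 base) in Ndufaf4 and Ndufs5, its shorter core GCATGCGC in Cycs, and CCGGAAG, the ETS motif that GABP binds, read on the opposite strand in Sdhd.
Cycs: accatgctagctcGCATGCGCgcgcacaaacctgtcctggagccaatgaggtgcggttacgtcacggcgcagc
Ndufaf4: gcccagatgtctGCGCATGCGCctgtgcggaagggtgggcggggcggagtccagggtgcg
Sdhd: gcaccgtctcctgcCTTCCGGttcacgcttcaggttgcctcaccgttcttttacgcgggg
Ndufs5: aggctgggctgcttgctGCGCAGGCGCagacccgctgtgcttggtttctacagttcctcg
In the stretches shown, Ndufaf4 and Ndufs5 thus both hold the full NRF1 letters, and of this pair only Ndufaf4 was called. The window of Sdhd, which fell, also holds them, from position -79 relative to the start, outside its printed stretch.

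The NRF1 motif, searched on both strands, stood in the windows of 19 of 75 members (25.3%), against 5.19% of all 27025 RefSeq promoters and 11.9% of the promoters of genes listed in vitro. Of the members that fell in vitro 7 of 40 (17.5%) held it, and of those tested and not called 12 of 32 (37.5%). The ETS motif CCGGAAG stood in 25.3% of member windows, 9.93% of all windows and 20.7% of those of genes listed in vitro. It was found in 27.5% of fallen and 25% of uncalled members. The YY1 motif AAGATGGC stood in 14.7% of member windows against 3.19% of all and 5.36% of those of genes listed in vitro, with 10% of fallen and 18.8% of uncalled members holding it, and in 1 of these 11 members the match lay upstream of the start. The NRF1 core, which the full motif can contain, was added after the Cycs sequence was seen; 17.3% of member windows, 3.05% of all windows and 6.22% of those of genes listed in vitro held it, as did 12.5% of fallen and 25% of uncalled members. A match describes letters in a window and shows no binding. Nrf1 and Gabpa themselves were not called in vitro, with log2 fold changes of 0.16 and -0.14, and neither was Yy1 at 0.03.

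In vitro 17.7% of all tested genes fell and 20.1% rose. Complex I, the NADH dehydrogenase, had 13 of its 37 nuclear subunits fall and 1 rise, with a median log2 fold change of -0.17. Its 7 core subunits carry the flavin and the iron-sulfur clusters, and 4 of them fell. The 3 that form the NADH-binding module all did, with log2 fold changes of -0.35 (Ndufv2), -0.25 (Ndufv1) and -0.24 (Ndufs1). Near the quinone site, Ndufs8 fell by 0.29 on the log2 scale, while Ndufs3 (-0.22) and Ndufs7 (-0.11) did not pass. Among 30 accessory subunits, which surround and stabilise the core, 9 fell and 1 rose. Without labelled WT replicate 1 the calls of 6 of the 13 were lost, without WT replicate 2 those of 5, without KO replicate 1 those of 6 and without KO replicate 2 those of 2. Each of the 3 NADH-binding calls was among those lost to at least 1 of these libraries.

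Accessory subunits led complex I. Ndufab1, the mitochondrial acyl carrier protein, is also needed for fatty acid synthesis inside the organelle. It measured 10.7 and 9.19 FPKM in the labelled WT libraries and 6.94 and 6.59 in the labelled KO libraries, a log2 fold change of -0.53 ± 0.10 (adjusted p 0.0016). Ndufb5, of the membrane arm, measured 12.6 and 13.6 FPKM against 8.90 and 9.79, with a log2 fold change of -0.46 ± 0.09 (adjusted p 0.0031). The groups of both genes were well separated, and both calls remained whichever library was left out, as did those of Ndufa10 (-0.40) and Ndufa5 (-0.37). Ndufb9 (-0.42) and Ndufa12 (-0.41) complete the leading genes; the first lost its call without labelled WT replicate 1 or KO replicate 1 and the second without WT replicate 1.

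Not all complex I transcripts were lower. Ndufs4, whose loss causes mitochondrial disease, measured 19.3 and 17.4 FPKM in the labelled WT libraries against 17.1 and 18.9 in the labelled KO libraries. Ndufa8 lay nearest 0, at 78.0 and 79.7 FPKM against 74.5 and 80.4. For both genes the 2 groups overlapped, and the log2 fold changes were -0.00 ± 0.10 and 0.00 ± 0.09. Ndufa3 rose, from 49.0 and 50.2 to 59.3 and 56.1 FPKM (log2 fold change 0.24, adjusted p 0.047), but its call was lost on leaving out either labelled WT library or labelled KO replicate 1. Ndufb4c is a near copy of Ndufb4, so reads of the pair may be split; it measured 1.16 to 2.04 FPKM and was not called.

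Of the 8 complex I assembly factors, which help build the enzyme and are not part of it, 4 fell and none rose, with a median of -0.35. Over all tested genes in vitro, 17.7% fell. After Ndufaf4 came Ndufaf7, a methyltransferase, at 9.81 and 10.3 FPKM in the labelled WT libraries against 7.21 and 7.48 (log2 fold change -0.42 ± 0.10, adjusted p 0.0056). Ndufaf1 (-0.38) and Ndufaf3 (-0.35) also fell, but lost their calls without labelled WT replicate 2, and Ndufaf3 also without WT replicate 1 or KO replicate 1. Ndufaf8 missed the threshold at -0.35 (adjusted p 0.0505). Ndufaf5 was nearest 0, at -0.11.

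Complex II, succinate dehydrogenase, is also an enzyme of the tricarboxylic acid cycle and is made from nuclear genes only. Its membrane anchors were lower and its catalytic subunits were not called. Sdhc measured 38.9 and 33.3 FPKM in the labelled WT libraries and 25.7 and 26.3 in the labelled KO libraries, a log2 fold change of -0.45 ± 0.09 (adjusted p 0.003). Sdhd, the other anchor, measured 87.9 and 78.6 FPKM against 63.1 and 70.1, and its log2 fold change was -0.30 ± 0.09 (adjusted p 0.026). In both genes the labelled KO libraries lay below the labelled WT libraries, a pattern found in 38.6% of all tested genes. The call of Sdhd was lost without labelled WT replicate 1 or KO replicate 1, with adjusted p up to 0.222, and that of Sdhc remained.

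The flavoprotein Sdha, which oxidises succinate, measured 73.7 and 73.1 FPKM in the labelled WT libraries and 64.6 and 69.5 in the labelled KO libraries (log2 fold change -0.10 ± 0.08, adjusted p 0.36). The iron-sulfur subunit Sdhb measured 51.6 and 49.4 FPKM against 49.8 and 50.3, and these groups overlapped (0.01 ± 0.08, adjusted p 0.91). Whether anchors and catalytic subunits differed in their response was not tested.

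In complex III, the cytochrome bc1 complex, 5 of 8 genes fell and none rose, where 17.7% of all tested genes fell. The 8 log2 fold changes lay between -0.38 and -0.22 with a median of -0.28. Uqcrfs1 encodes the Rieske iron-sulfur protein, which moves electrons toward cytochrome c1. It measured 96.2 and 91.1 FPKM in the labelled WT libraries and 72.2 and 74.6 in the labelled KO libraries, a log2 fold change of -0.33 ± 0.08 (adjusted p 0.0081). The lowest value belonged to the small subunit Uqcr10, at 166 and 136 FPKM against 113 and 115 (-0.38 ± 0.10, adjusted p 0.012). Both labelled KO libraries lay below both labelled WT libraries in 7 of 8 genes, a pattern found in 38.6% of all tested genes. Uqcrc1, a core subunit nearest 0 at -0.22, was the exception. Of the 5 calls, 4 were lost without labelled WT replicate 1, 2 without WT replicate 2, 3 without KO replicate 1 and 1 without KO replicate 2, so none remained in all. Cyc1, the cytochrome c1 of this complex that the naming rule leaves out, fell as well, from 99.5 and 82.7 to 66.2 and 69.8 FPKM (-0.40, adjusted p 0.0075).

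Complex IV, cytochrome c oxidase, had 9 of 14 tested genes fall and 2 rise, with a median of -0.26. Over all tested genes in vitro, 17.7% fell and 20.1% rose. Cox7b, a small membrane subunit, measured 95.6 and 85.1 FPKM in the labelled WT libraries and 64.2 and 63.4 in the labelled KO libraries (log2 fold change -0.48 ± 0.09, adjusted p 0.0016). Cox6c, another small subunit, measured 42.0 and 39.1 FPKM against 31.3 and 29.0 (-0.40 ± 0.08, adjusted p 0.0031). These 2 calls remained whichever library was left out. Cox5a had the largest fall in the complex, but labelled WT replicate 1 stood apart: it measured 65.7 FPKM there, 41.2 in WT replicate 2, and 34.9 and 37.1 in the labelled KO libraries. Its log2 fold change of -0.55 ± 0.16 (adjusted p 0.021) shrank to as little as -0.17 with one library left out, and the call was lost without labelled WT replicate 1 or KO replicate 1. Cox7a2 fell by 0.38, and its call was lost without labelled WT replicate 2. Over the complex, 5 of the 9 calls were lost without labelled WT replicate 1, 3 without WT replicate 2, 5 without KO replicate 1 and 3 without KO replicate 2.

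Cox4i1 and Cox6a1, both abundant, were not called. Cox4i1, which binds the adenine nucleotides that regulate the enzyme, measured 193 and 173 FPKM in the labelled WT libraries and 160 and 186 in the labelled KO libraries (-0.05 ± 0.10, adjusted p 0.69). Cox6a1 measured 316 and 276 FPKM against 256 and 316 (-0.02 ± 0.11, adjusted p 0.9). Their groups overlapped. Ndufa4, named for complex I but known as a complex IV subunit, fell by 0.23 on the log2 scale, and that call was lost on leaving out any of the 4 libraries.

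Risen genes of complex IV were a supercomplex factor and a testis-type isoform. Cox7a2l joins complex III to complex IV in supercomplexes. It measured 133 and 132 FPKM in the labelled WT libraries and 154 and 150 in the labelled KO libraries, a log2 fold change of 0.22 ± 0.08 (adjusted p 0.042). The replicates were close, but leaving out any of the 4 libraries ended the call, with adjusted p up to 0.167, at a log2 fold change of 0.21 to 0.24. Cox6b2, an isoform known from testis, measured 3.50 and 5.80 FPKM against 6.51 and 7.77 (0.68 ± 0.24, adjusted p 0.042), and its call was lost without labelled WT replicate 1 or KO replicate 2. The muscle isoforms were near the filter, Cox7a1 at 0.915 to 1.58 FPKM and not called, and Cox6a2 at 0.271 to 0.735 FPKM and not tested.

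Complex V, the ATP synthase, was lower throughout. All 17 genes had a negative log2 fold change, from -0.59 to -0.19 with a median of -0.33, and 12 of them fell. Both labelled KO libraries lay below both labelled WT libraries in FPKM for all 17. Over all tested genes in vitro, 38.6% showed that pattern and 17.7% fell. Calls came from the F1 head and central stalk (3 of 5), the peripheral stalk that holds the head still (3 of 4), the rotating c ring (1 of 3) and the other membrane subunits (5 of 5). The calls of 6 of the 12 were lost without labelled WT replicate 1, 1 without WT replicate 2, 5 without KO replicate 1 and 1 without KO replicate 2. Atp5mpl, Atp5g1, Atp5pb and Atp5md remained called in each.

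In the F1 head, the catalytic beta subunit Atp5b measured 374 and 340 FPKM in the labelled WT libraries and 246 and 278 in the labelled KO libraries, a log2 fold change of -0.42 ± 0.12 (adjusted p 0.015; 0.15 without labelled KO replicate 1). Its partner in the head, the alpha subunit Atp5a1, was at a similar level, 363 and 313 FPKM against 262 and 303, and did not pass (-0.23 ± 0.12, adjusted p 0.14). Atp5d, the delta subunit of the central stalk, fell by 0.41, a call lost without labelled WT replicate 1 or KO replicate 1. In the peripheral stalk Atp5pb led, at 54.5 and 52.1 FPKM against 41.0 and 38.3 (-0.40 ± 0.08, adjusted p 0.0028). Atp5h was nearest 0 in the complex, at -0.19 ± 0.08 (adjusted p 0.07). Among the small membrane subunits Atp5mpl was lowest, at 81.1 and 76.5 FPKM in the labelled WT libraries and 54.6 and 48.1 in the labelled KO libraries (-0.59 ± 0.09, adjusted p 0.00057).

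The c ring is made of identical proteins encoded by Atp5g1, Atp5g2 and Atp5g3, which differ in the import peptides that are cut off. Only Atp5g1 was called, at 24.7 and 21.1 FPKM in the labelled WT libraries and 13.6 and 16.3 in the labelled KO libraries (-0.59 ± 0.11, adjusted p 0.0015). Atp5g2 (-0.23 ± 0.09, adjusted p 0.054) and Atp5g3 (-0.22 ± 0.08, adjusted p 0.061) missed the threshold narrowly. Atp5g1 gave 9.34% and 8.62% of the summed c ring FPKM in the labelled WT libraries against 6.80% and 7.46% in the labelled KO libraries, and Atp5g3 gave most of the sum in all 4, from 54.8% to 57.4%. Reads shared by the similar coding parts of these genes may have been split in counting.

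Summing FPKM over the genes of a complex gives its level in each library. For complex V the sums were 1957 and 1764 in the labelled WT libraries and 1408 and 1515 in the labelled KO libraries, so that the labelled KO mean was 78.6% of the labelled WT mean. Complex III stood at 79.7%, the complex I assembly factors at 75.2%, complex IV at 86.1%, complex II at 86.2% and complex I at 87.9%. Over all 90 members the sums were 6580 and 6138 against 5107 and 5495, a ratio of 83.4%. FPKM sums over a whole library need not be equal, and after rescaling each library to one common sum (TPM) the ratio over all members was 88.5%, with complex V at 83.4%, complex IV at 91.5% and complex I at 93.2%. In both scales the labelled KO libraries lay below the labelled WT libraries for all members together. Differences between complexes were not tested.

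**Figure D3:**
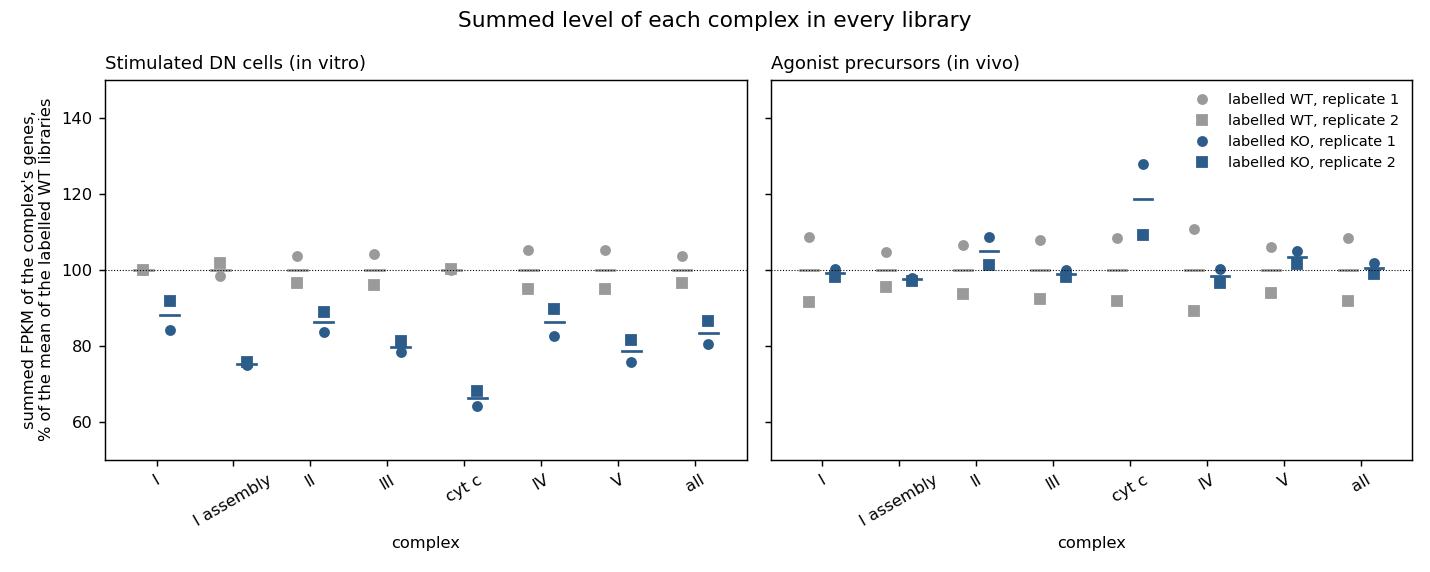
Summed FPKM of the genes of each complex in every library (points), as a percentage of the mean of the labelled WT libraries of that system (y axis), by complex (x axis); short lines are group means of 2 libraries. In vitro every labelled KO point lies below the labelled WT points, with group means from 66.1% (cytochrome c) to 87.9% (complex I), and in vivo the 2 labelled WT replicates lie on either side of most labelled KO points.

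In the agonist precursors taken directly from the thymus, no respiratory chain gene passed the test. Of 89 tested members 0 rose and 0 fell by edgeR, where 0.284% of all 10227 tested genes rose and 0.821% fell; 1 member, Cox7a2l, had an unadjusted p under 0.05, and DESeq2 also called 0. The median log2 fold change was 0.01, with 42 values below 0, and the medians of the complexes lay between -0.03 (assembly factors) and 0.05 (complexes II and V), with Cycs at 0.24. The labelled KO libraries lay below both labelled WT libraries for 11 members and above for 12, patterns found in 21.4% and 22% of all tested genes. Members took 0.630% and 0.547% of counts in the labelled WT libraries and 0.603% and 0.570% in the labelled KO libraries, so the labelled WT replicates enclosed both labelled KO libraries.

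Spread between in vivo replicates was larger than the difference between groups. The median member was lower by 0.18 on the log2 scale in labelled WT replicate 2 than in replicate 1, and 77 of 89 members were lower there, whereas the median difference between group means was 0.01. Without labelled WT replicate 2 the median was -0.11, and without WT replicate 1 it was 0.12, with 0 members called in either. Simulated data drew each gene independently with 1 coefficient of variation, 0.121, for all genes, so they held no shift shared by members. There the test called 39 of 100 genes given a 1.5-fold change and 95 of 100 given a 2-fold change. The median change seen in vitro was smaller than either. A p above the threshold does not show that levels were equal.

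The largest in vivo values belonged to few genes in each complex. Ndufaf6, an assembly factor, measured 2.90 and 2.97 FPKM in the labelled WT libraries and 3.98 and 3.90 in the labelled KO libraries (log2 fold change 0.41 ± 0.22, adjusted p 0.49). Ndufa12, an accessory subunit of complex I, measured 7.01 and 7.57 FPKM against 8.93 and 9.48 (0.33 ± 0.15, adjusted p 0.42). In both genes the labelled KO libraries lay above both labelled WT libraries, as in 22% of all tested genes, and neither passed. In the other direction Ndufb2 measured 1.99 and 2.54 FPKM against 1.8 and 1.75 (-0.35 ± 0.19), and Cox7a2l measured 73.6 and 64.6 against 57.3 and 58.3 (-0.27 ± 0.10, adjusted p 0.31). Other leading values were 0.28 for Cox5a and Ndufs5, -0.38 for the scarce isoform Cox6b2, -0.26 for Ndufaf1, 0.15 for Uqcrq, Atp5pb and Atp5o, and 0.12 for Sdhb. Of the 6 members lowest in vitro, Cox5a (0.28) and Cycs (0.24) had both labelled KO libraries above the labelled WT libraries in vivo, whereas Atp5g1 (0.13), Ndufaf4 (-0.04), Atp5mpl (0.01) and Ndufab1 (0.01) had overlapping groups; none of the 6 passed.

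**Figure D4:**
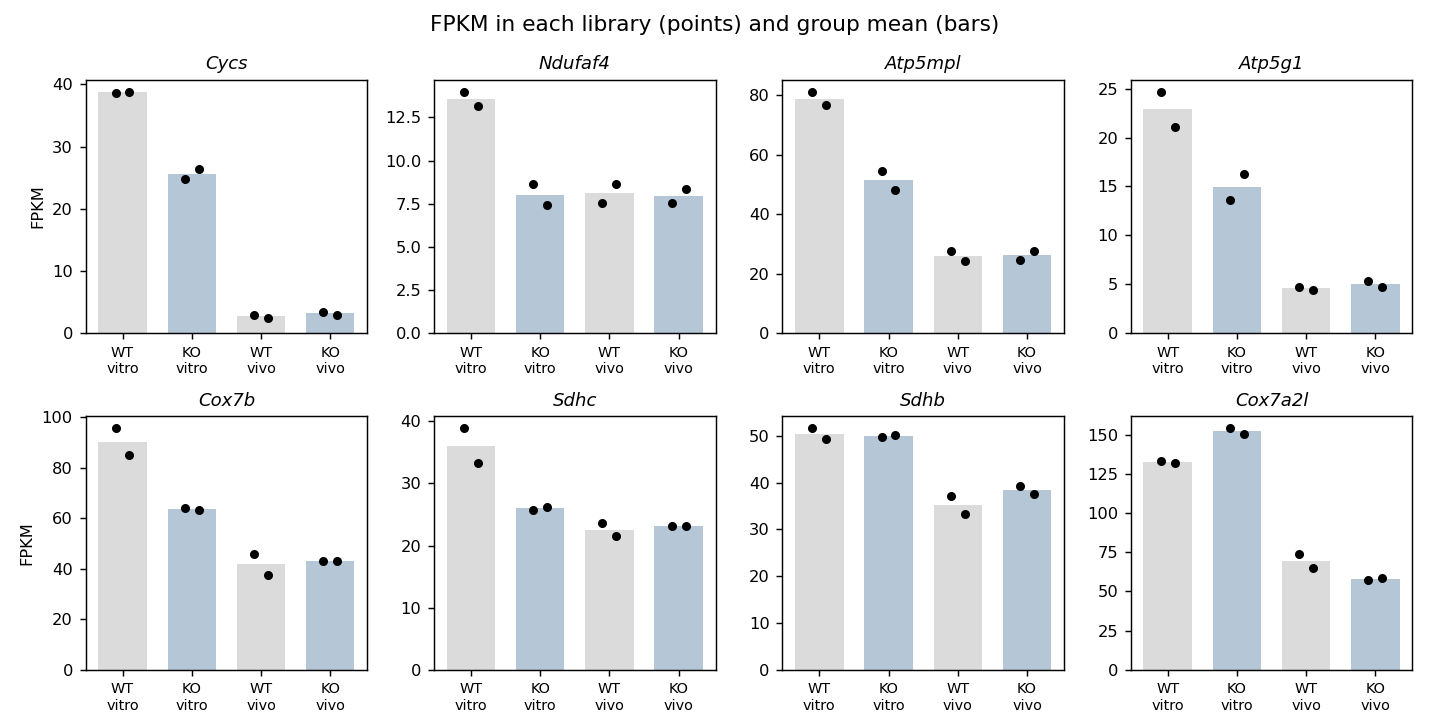
FPKM (y axis, from 0) of 8 genes in each of the 8 libraries (points), with the mean of 2 libraries per group (bars), for labelled WT and KO in vitro and in vivo. Cycs, Ndufaf4, Atp5mpl, Atp5g1, Cox7b and Sdhc are lower in the labelled KO libraries in vitro and show groups that are close together in vivo; Sdhb overlaps in vitro, and Cox7a2l is higher in vitro and lower in vivo in the labelled KO libraries.

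Because one comparison passed and the other did not, the difference itself was tested over all 8 libraries, as the in vivo log2 fold change minus that in vitro. For 15 of 88 members this difference was above 0 at an adjusted p under 0.05 and for 1 it was below 0, where 6.57% and 9.81% of all 9364 tested genes passed in these directions. The median over members was 0.30, against -0.00 over all genes. By complex, 6 of 17 complex V genes, 5 of 36 complex I subunits, and 1 each of the assembly factors, complex II, complex IV and cytochrome c were above 0. None of the 8 complex III genes passed, and 2 of them had an unadjusted p under 0.05.

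Cycs had the clearest difference, 0.83 ± 0.17 (adjusted p 0.009). This fit gave both systems 1 common spread, although in the separate fits the SE of Cycs was 0.08 in vitro and 0.19 in vivo. In vivo Cycs measured 2.93 and 2.48 FPKM in the labelled WT libraries and 3.46 and 2.96 in the labelled KO libraries. These groups barely missed overlapping, at 2.96 against 2.93 FPKM, and 22% of all tested genes had both labelled KO libraries above. The in vivo log2 fold change, 0.24 ± 0.19, was opposite in sign to that in vitro but not called (edgeR adjusted p 0.69). Ndufa12 followed at 0.77 ± 0.16 (adjusted p 0.0098), then Atp5g1 at 0.74 ± 0.18 and Ndufaf4 at 0.73 ± 0.16. The remaining positive differences were between 0.48 and 0.63: Atp5mpl, Ndufa5, Atp5pb, Ndufab1, Atp5b, Cox7b, Atp5o, Ndufb5, Sdhc, Ndufa10 and Atp5k. Cox7a2l had the only negative one, -0.46 ± 0.13 (adjusted p 0.036), higher in vitro and lower in vivo in the libraries labelled KO.

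These differences depended on single libraries. Cycs was the only member whose call remained under every left-out library, with values from 0.70 to 0.98 and a highest adjusted p of 0.047. The count of positive differences was 1 without in vitro labelled WT replicate 1, 4 without in vitro labelled KO replicate 1 and 5 without KO replicate 2. It was 29 without in vivo labelled WT replicate 1, 6 without WT replicate 2, 4 without in vivo labelled KO replicate 1 and 6 without KO replicate 2. The call of Cox7a2l was lost in all left-out libraries but in vivo labelled WT replicate 2.

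Other genes of oxidative metabolism were read from the same fits. In vitro, of 111 tested genes in 7 lists, 36 fell and 1 rose (23 fell without labelled KO replicate 1, and 5 rose without labelled WT replicate 2), and in vivo none of 107 was called by edgeR or DESeq2, with 2 at an unadjusted p under 0.05. Among the 13 subunits made from mitochondrial DNA, 3 fell, all of complex I (mt-Nd1, mt-Nd2 and mt-Nd6), and the median was -0.27; a count of 3 of 13 is near the 17.7% of all tested genes that fell. The call of mt-Nd6 was lost under the length offset (adjusted p 0.0874). mt-Nd1 measured 3680 and 3169 FPKM in the labelled WT libraries and 2437 and 2024 in the labelled KO libraries (-0.59 ± 0.14, adjusted p 0.0077).

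Of 14 nuclear regulators 5 fell in vitro, where 17.7% of all tested genes fell. Pprc1 and Ppargc1b, coactivators of the family that drives mitochondrial biogenesis, had log2 fold changes of -0.73 and -0.55, and Myc, a growth regulator that also acts on mitochondrial genes, had -0.53. Pprc1 measured 32.0 and 25.9 FPKM in the labelled WT libraries and 15.5 and 18.9 in the labelled KO libraries. The other 2 were Twnk, the helicase that unwinds mitochondrial DNA (-0.40), and Tfb2m, a mitochondrial transcription factor (-0.31), while Tfam, which packages mitochondrial DNA, was not called (-0.14).

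Protein import and the outer membrane gave 7 of 11 fallen genes, with a median of -0.28, where 17.7% of all tested genes fell. Timm23, the channel of the inner membrane, measured 66.0 and 44.1 FPKM against 30.2 and 31.7 (-0.81 ± 0.15, adjusted p 0.0016), Tomm40, the channel of the outer membrane, had -0.52, and the receptor Tomm70a had -0.51. In the tricarboxylic acid cycle list 6 of 16 fell, led by Suclg2 (-0.60), a subunit of succinyl-CoA ligase, and citrate synthase (Cs) was at -0.30. Coenzyme Q synthesis had 3 of 11 fall, a small count near the 17.7% of all tested genes, led by Coq4 at -0.75.

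Assembly factors outside the naming rule had 7 of 38 fallen and 1 risen, with a median of -0.12, so their share of falls was near the 17.7% of all tested genes. Sdhaf1 and Sdhaf3, which help insert iron-sulfur clusters into Sdhb, had -0.70 and -0.76, and Lrpprc, which stabilises mitochondrial messenger RNA, had -0.54. Sdhaf1 had the same value of -0.70 in vivo, at 2.90 and 3.0 FPKM against 1.76 and 1.88, without passing there. Uqcc3, a complex III assembly factor, rose by 0.41 on the log2 scale, from 28.6 and 30.1 to 37.8 and 38.9 FPKM (adjusted p 0.0073). Of 8 other partners, including the phosphate carrier Slc25a3 (-0.33) and the adenine nucleotide carrier Slc25a4 (-0.28), 5 fell, with Higd1a lowest at -0.43.

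Markers of other cell types were low in vitro, and some moved with the groups. The listed B cell genes Cd79a and Cd79b summed to 2.95 and 2.85 FPKM in the labelled WT libraries and 5.06 and 5.76 in the labelled KO libraries, and both rose. Erythroid genes summed to 2.14 and 13.9 against 3.94 and 14.6, separating replicates rather than groups. The 3 of 6 listed stromal genes, led by Epcam, summed to 4.83 and 4.62 against 8.58 and 7.09, and 1 rose. Epcam itself was at 4.69 and 4.52 FPKM against 8.30 and 6.88 in vitro, and at 4.71 and 5.32 against 3.37 and 2.70 in vivo, where it was not called. In vivo the B cell sum was 13.5 and 4.29 against 24.3 and 17.6, with no marker of that list called. Sox13, the only 1 of 3 gamma delta T cell markers listed, was at 21.0 and 15.4 FPKM against 48.4 and 31.4. It was not called (edgeR adjusted p 0.105). The part of these cells in the results was not tested.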

How the data were processed

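The authors deposited, for each of the 8 libraries, a table of whole-number counts and FPKM values per gene symbol. The submitters' processing notes list build mm10 and the tools RSEM, featureCounts (Subread), Bowtie2, DESeq2 and Trim Galore 0.4.4 without roles, and RNA was taken with TRIzol, per the labels' protocols. Which annotation and strand setting were used is not given in the sources used here. Deposited counts were tested with edgeR 4.0.16 in R 4.3.3 (TMM, quasi-likelihood, two-sided), each system on its own 4 libraries without a replicate term. Tested genes had at least 1 FPKM in at least 2 libraries, 9658 in vitro and 10227 in vivo. P-values were adjusted by Benjamini-Hochberg over all of them, and calls needed an adjusted p under 0.05. Differences between systems came from a contrast of 4 group means over 8 libraries, on 9364 genes. SE is the size of a log2 fold change divided by the root of its F statistic. Sums of deposited FPKM describe levels. With 2 libraries against 2, an exact permutation test cannot go below p = 0.333, so none was run.

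The test was tried on simulated counts, drawn independently for each gene with 1 spread for all genes. In vitro it called 87 of 100 genes given a 1.5-fold change, 100 of 100 given a 2-fold change and 18 unchanged ones of 9658 genes in all. Alternatives were DESeq2 1.42.0, limma 3.58.1 on log2(FPKM + 1) and log2(FPKM + 0.1), other scalings and filters, a replicate block, a length offset and fits without each library in turn. Biological coefficients of variation were 0.0727 (in vitro) and 0.121 (in vivo). The fit for the difference, which shares 1 spread between the systems, had 0.0882. Replicates differed by more than counting noise in every group. Coordinates and promoter windows come from RefSeq GRCm38.p6 (all 90 members matched), and exons from GENCODE annotation of the same build. Values of 1 member and 1 marker are not reported here. The genes and lists were chosen with earlier results of these data known. Genes given library by library were those with the largest called change in vitro in each complex, the one nearest 0, complex II, Cycs, genes called for the difference, the largest values in vivo and tissue-restricted isoforms; in the other lists, the largest called genes and a few regulators.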

Additional observations from a re-analysis of the deposited data

Results flagged for a closer look

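Testing the difference in genotype label effect between the 2 systems, over 8 libraries, called 16 members and 12 other genes of oxidative metabolism. The threshold was an adjusted p under 0.05. Over all 9364 tested genes, 6.57% passed above 0 and 9.81% below. The member calls depended on single libraries, as described above. For the 12 other genes such dependence is not described here. The values are in vivo minus in vitro log2 fold changes. Among complex V genes they were 0.74 (Atp5g1), 0.63 (Atp5mpl), 0.57 (Atp5pb), 0.54 (Atp5b), 0.53 (Atp5o) and 0.48 (Atp5k). Complex I subunits had 0.77 (Ndufa12), 0.62 (Ndufa5), 0.57 (Ndufab1), 0.51 (Ndufb5) and 0.48 (Ndufa10), and the assembly factor Ndufaf4 had 0.73. Cycs stood at 0.83, Cox7b at 0.54 and Sdhc at 0.51, and Cox7a2l alone was negative at -0.46.

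Outside the members, the coactivators Ppargc1b and Pprc1 had the values 1.09 and 0.91, and Myc had 0.67. The import genes Timm23, Tomm40, Tomm70a and Tomm20 had 0.96, 0.63, 0.63 and 0.45, and the channel Vdac1 had 0.44. Lrpprc had 0.75, Ecsit, a complex I assembly factor, 0.47, and the succinyl-CoA ligase subunits Suclg2 and Sucla2 0.64 and 0.46. Ppargc1b measured 2.68 and 3.01 FPKM in vitro in the labelled WT libraries against 1.88 and 1.92 in the labelled KO libraries. In vivo it measured 2.92 and 3.19 against 4.51 and 4.26, so its 2 groups were apart in opposite directions in the 2 systems. The in vivo change was not called by edgeR, and 22% of all tested genes had both labelled KO libraries above there.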

How the results depend on the processing

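No named gene that was called changed direction under the alternatives run for it. In vitro, the 3 higher members became 1 by DESeq2, upper-quartile factors, no FPKM filter, limma on log2(FPKM + 0.1) or the replicate block, 0 in one fit of all 8 libraries, and 0 to 1 with one library left out. The 46 lower members became 24 with the replicate block and length offset together, and 24 to 48 with one library left out; other alternatives gave 31 to 50. In vivo, the block with the length offset called 1 member higher, where it called 7.98% of all tested genes higher. The median, 0.01, turned negative with upper-quartile factors (-0.0025) and without labelled WT replicate 2 (-0.11), and reached 0.12 without WT replicate 1. For the difference, the 15 higher members ran from 1 to 29 and the 1 lower from 0 to 1 with one library left out, and the 1 lower was 0 without the FPKM filter. Other pathway genes had 2 higher in vitro and 1 in vivo under the block, against 1 and 0, and 1 to 5 higher and 23 to 36 lower in vitro with one library left out. Rescaled to TPM, the in vitro log2 ratios of summed levels were -0.10 for complex I, -0.33 for its assembly factors, -0.13 for complex II, -0.24 for complex III, -0.13 for complex IV, -0.51 for cytochrome c and -0.18 for all members, against -0.19, -0.41, -0.21, -0.33, -0.22, -0.60 and -0.26. The YY1 motif was upstream of the start in 1 member, against 11 in the whole window. The causes of these moves were not tested.

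The labels give both groups of a system the same replicate numbers without saying that a number pairs them. Deviations of same-numbered libraries correlated at -0.295 in vitro and 0.452 in vivo over genes, with 2 pairs each. With the replicate block, 39 members fell and 1 rose in vitro, where 15.1% of all tested genes fell and 17.6% rose. In vivo it called no member, while 4.61% of all tested genes fell and 5.94% rose, against 0.821% and 0.284% without the block. Crossing the in vitro numbers, an alternative chosen after seeing the data, gave 58 lower and 3 higher members. In that fit 25.4% of all tested genes were lower and 26.4% higher. Limits are the 2 libraries per group, whose p-values rest on few residual degrees of freedom, and members that overlap other genes or have near copies, whose counts may be shared.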

Other observations

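Small, overlapping genes of the mitochondrial DNA were uneven between replicates in vitro. mt-Nd4l, which overlaps mt-Nd4, was at 16.5 and 18.3 FPKM in the labelled WT libraries and 8.92 and 71.8 in the labelled KO libraries. mt-Atp8, which overlaps mt-Atp6, was at 0.817 and 4.50 FPKM against 4.14 and 3.39. In each gene 1 library stood apart, the groups overlapped and neither was called. Reads of such pairs cannot be told apart without knowing how they were counted.

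Cytochrome c showed a level in vivo, 2.48 to 3.46 FPKM, that was low among the members: the median member of complex V there was at 26.0 FPKM and the median of all members at 23.5 FPKM. In vitro Cycs was at 24.8 to 38.8 FPKM, with a median of 49.4 FPKM over all members. Libraries of the 2 systems came from different providers, so the levels were set side by side only.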
